A study of Mus musculus with 21 samples.

Results

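The 50 genes described here encode the proteins that mark, license and fire DNA replication origins in mouse cells and that work at the moving fork. They were chosen by gene symbol from a list ordered by role, with no measured value in the rule, and all 50 were among the 24454 genes of the count table and among the 13719 genes that passed the filter on low counts. The list held the 6 subunits of the origin recognition complex (ORC), 3 licensing regulators, the 6 subunits of the MCM2-7 helicase and 2 other MCM proteins. It also held the 2 subunits of the DBF4-dependent kinase (DDK), CDC45 with the 4 GINS subunits, 10 subunits of the replicative polymerases, 6 genes of the sliding clamp and its loader, 3 RPA subunits, 2 enzymes of Okazaki fragment maturation, 2 ribonucleotide reductase subunits and 3 fork protection factors.

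RNA of mouse embryonic fibroblasts (MEFs) was sequenced in 7 groups of 3 libraries. RTEL1 is a helicase that unwinds telomere loops and G-quadruplexes (G4s), and the groups addressed how its loss, and the G4 ligand TMPyP4, change transcription. Rtel1f/f MEFs, whose Rtel1 gene can be removed by Cre recombinase, were infected with an adenovirus that expresses GFP (Ad-GFP) or Cre (Ad-Cre), or with Ad-GFP followed by 10 µM TMPyP4 for the last 48 h. The RTEL1 CA groups were Rtel1f/f MEFs that also expressed RTEL1 C1252A/C1255A, a form altered in the domain that contacts the telomere protein TRF2, and were infected with Ad-GFP or Ad-Cre. Trf1f/f MEFs, floxed for the telomere protein gene Terf1, were infected likewise. Cells of the Rtel1f/f line were collected 96 h after infection, and the time for the Trf1f/f line is not given in the sources used here. Every cell in the study was thus infected with an adenovirus, the mutant protein came from a pBabe retroviral vector in a separately listed derivative of the Rtel1f/f line, and the Trf1f/f MEFs were a different line. The labels call the libraries of a group biological replicates, but do not say whether they came from separate embryos, so p-values measure the spread between these libraries only.

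Libraries held between 32069888 and 51938593 counts (median 43013208). Levels are given as CPM, the count of a gene scaled to the normalized size of its library. Rtel1 itself was at 66.2, 59.1 and 60.2 CPM in the 3 Rtel1f/f Ad-GFP libraries and at 29.9, 31.9 and 26.8 CPM after Ad-Cre, below every Ad-GFP library. In the RTEL1 CA groups reads of the vector and of the gene cannot be told apart, and Rtel1 stood at 328 to 338 CPM with Ad-GFP and 253 to 283 CPM with Ad-Cre. Terf1 was at 27.9 to 30.3 CPM in Trf1f/f Ad-GFP libraries and at 0.0268 to 0.110 CPM after Ad-Cre. The 10 fibroblast markers summed to between 7021 and 28706 CPM in every library, although Thy1 and Lum were near 0 in the Rtel1f/f line. Those sums differed between groups. They were 19193 to 21136 CPM in Rtel1f/f Ad-GFP libraries, 7341 to 10123 CPM after Ad-Cre and 10469 to 14090 CPM with TMPyP4. In RTEL1 CA Ad-GFP libraries, without deletion or drug, they were also low, at 8484 to 12341 CPM. Not every marker was lower after Ad-Cre, as mean Vim went from 1382 to 1610 CPM and mean Dcn from 14.2 to 39.3 CPM. The part of these markers in the results below was not tested. Leukocyte markers summed to at most 13.2 CPM, endothelial to at most 4.45 CPM, epithelial to at most 3.43 CPM and muscle markers to at most 0.719 CPM, and neural markers, of which Nes made up most, to at most 497 CPM.

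In the G1 phase, ORC binds origins and, with CDC6 and CDT1, loads MCM2-7 onto DNA as an inactive ring. DDK and cyclin-dependent kinases then bring in CDC45 and GINS, the ring becomes the active helicase, and polymerases alpha, delta and epsilon copy both strands, with PCNA as their clamp. Many of these genes are transcribed in a wave before and during S phase, in large part through E2F factors, so in bulk RNA fewer cells in that phase and less RNA per cell cannot be told apart.

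What the members share at their promoters can be shown directly. RefSeq promoters of GRCm38.p6, from 250 bases before to 50 bases after the transcription start, were matched for 41 of the 50 members, and not for Gmnn, Pole, Mcm4, Gins2, Rfc2, Prim2, Gins4, Gins1 and Tipin. An E2F motif (TTTCGCGC, TTTGGCGC, TTCCCGCC or TTCGCGCC on either strand, overlaps counted) was found in 19 of the 41, that is 46.3% (exact 95% binomial interval 30.7% to 62.6%), against 3.80% of the promoters of 27025 genes and 7.11% of those of 10394 genes that were tested. In the 250 bases before the start alone it was found in 10 of the 41 (24.4%), against 3.19% of all genes and 6.02% of those tested. A CCAAT box was in 58.5% of member promoters, 41.1% of all and 43.0% of those tested, and the cell cycle homology region (TTTGAA or TTCGAA) in 22.0%, 21.7% and 16.1%. A G4 motif (4 runs of at least 3 G, 1 to 7 bases apart, on either strand) was in 24.4% of member promoters, above the 20.4% of all genes and below the 31.9% of those tested. These matches describe letters in a window and not sites in use. The 250 bases before the start of 5 members are printed below, 5′ to 3′ on the strand of the gene, with E2F, CCAAT and cell cycle homology matches in capitals. They were chosen after the values were seen, from called members with 1 start. Rrm1, Mcm5 and Mcm6 were taken as 3 with an E2F motif before the start, and Rrm2 and Orc5 as the 2 highest without one. Their difference in E2F matches was thus set by the choice. Rrm1, Rrm2 and Orc5 were higher and Mcm5 and Mcm6 lower after Rtel1 deletion. The stretches lie at chr7:102441445-102441694 on the plus strand (Rrm1), chr8:75109259-75109508 on the plus strand (Mcm5), chr1:128359706-128359955 on the minus strand (Mcm6), chr12:24708004-24708253 on the plus strand (Rrm2) and chr5:22550339-22550588 on the minus strand (Orc5).
Rrm1: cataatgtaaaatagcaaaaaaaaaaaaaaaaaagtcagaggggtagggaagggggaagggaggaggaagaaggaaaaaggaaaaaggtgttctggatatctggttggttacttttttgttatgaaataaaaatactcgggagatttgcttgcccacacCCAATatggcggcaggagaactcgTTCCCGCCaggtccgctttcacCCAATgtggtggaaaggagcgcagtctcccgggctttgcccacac
Mcm5: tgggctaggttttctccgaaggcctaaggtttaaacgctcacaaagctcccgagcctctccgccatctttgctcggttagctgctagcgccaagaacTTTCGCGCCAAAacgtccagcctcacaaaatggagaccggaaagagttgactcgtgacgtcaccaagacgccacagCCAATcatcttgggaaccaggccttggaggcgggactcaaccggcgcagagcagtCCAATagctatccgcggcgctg
Mcm6: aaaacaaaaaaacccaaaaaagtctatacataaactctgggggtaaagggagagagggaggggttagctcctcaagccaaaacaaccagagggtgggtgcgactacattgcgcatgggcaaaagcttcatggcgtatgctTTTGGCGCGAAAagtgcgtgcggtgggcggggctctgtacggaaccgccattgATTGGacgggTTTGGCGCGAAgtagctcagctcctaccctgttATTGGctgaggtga
Rrm2: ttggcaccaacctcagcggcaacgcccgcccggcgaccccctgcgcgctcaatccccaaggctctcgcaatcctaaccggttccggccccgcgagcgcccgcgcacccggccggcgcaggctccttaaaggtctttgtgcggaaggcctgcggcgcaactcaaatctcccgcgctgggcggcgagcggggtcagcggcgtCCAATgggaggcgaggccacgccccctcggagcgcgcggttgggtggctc
Orc5: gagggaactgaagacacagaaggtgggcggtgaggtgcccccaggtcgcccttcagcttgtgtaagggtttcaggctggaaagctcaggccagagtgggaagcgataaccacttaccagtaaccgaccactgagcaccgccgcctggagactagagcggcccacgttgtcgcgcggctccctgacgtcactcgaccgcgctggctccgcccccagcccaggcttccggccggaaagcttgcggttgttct
The Mcm6 stretch held 5 E2F matches, which overlapped at 2 separate places, and the Mcm5 stretch 3 that overlapped at 1 place. The Rrm1 stretch held 1, whereas no E2F match stood in those of Rrm2 and Orc5. CCAAT boxes were found in the first 4 of the 5, once in Rrm2 and at 2 places each in Rrm1, Mcm5 and Mcm6, and a G4 motif on the sense strand of Rrm1 and Mcm6. Over the members with a promoter, the E2F motif was present in 2 of 8 that were higher after Rtel1 deletion (Orc4 and Rrm1), in 4 of 7 that were lower (Mcm5, Mcm6, Mcm7 and Lig1) and in 13 of 26 that were not called. A G4 motif on either strand was present in 3 of the 8, 3 of the 7 and 4 of the 26. These small counts were not tested.

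To compare levels between genes, TPM values were used, since these are scaled for transcript length. In Rtel1f/f Ad-GFP MEFs the sliding clamp Pcna was the most abundant member at 661 TPM ± 36.3 (SD, n = 3), above Mcm7 at 400.1 ± 10.0 and Mcm6 at 298 ± 13.7. Mcm8, a helicase of repair and of stressed forks, was the lowest at 10.6 ± 0.5 TPM, next to Orc3 at 14.3 ± 0.8. Subunits of the same complex were not at one level. Within ORC the means spanned 10.0-fold, from Orc3 to Orc6 at 143 ± 2.0 TPM, whereas the MCM2-7 subunits spanned 2.5-fold, from Mcm5 at 160 ± 1.2 to Mcm7. The order of MCM2-7 was Mcm7, Mcm6, Mcm3, Mcm2, Mcm4 and Mcm5, and Mcm3 (248 ± 5.5) and Mcm2 (236 ± 5.9) were the neighbours closest to each other. The large ribonucleotide reductase subunit Rrm1 stood at 255 ± 11.4 TPM and the small subunit Rrm2 at 73.8 ± 10.4.

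**Figure D1:**
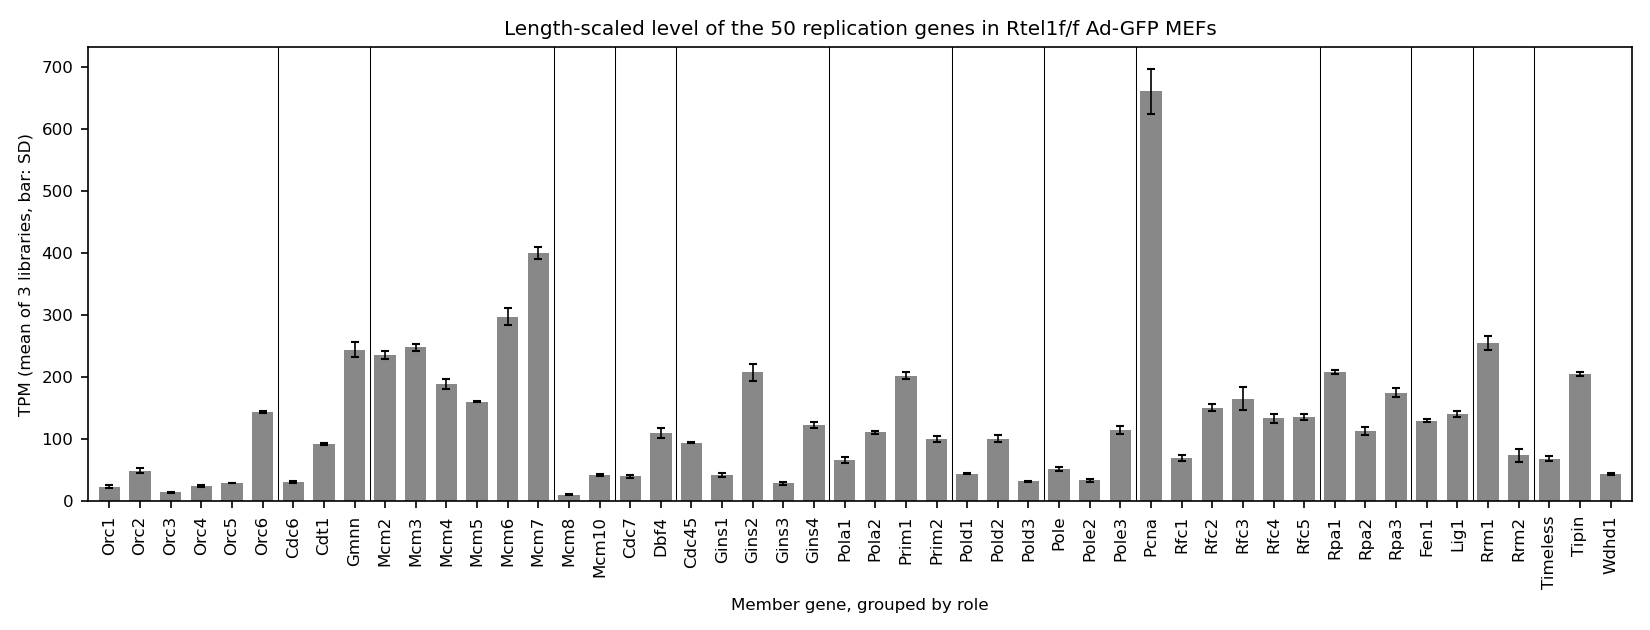
TPM of the 50 replication genes in Rtel1f/f Ad-GFP MEFs, grouped by role. Bars show the mean of 3 libraries and error bars the SD. Pcna is the tallest bar at 661 TPM and Mcm8 the shortest at 10.6 TPM.

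After Rtel1 deletion, subunits of ORC and of ribonucleotide reductase were higher than in Rtel1f/f Ad-GFP cells. Subunits of the MCM2-7 helicase and the DNA ligase Lig1 were lower. Of the 50 members, 8 were higher and 8 lower in Rtel1f/f Ad-Cre than in Rtel1f/f Ad-GFP MEFs (edgeR quasi-likelihood test, adjusted p of at most 0.01). That was 32.0% of the members, against 43.0% of all genes tested, of which 22.0% were higher and 21% lower, so the share of members called was below that of all genes. Against the same control, undeleted RTEL1 CA Ad-GFP cells also had all 8 of the former called higher and 5 of the 8 latter called lower. With RTEL1 CA Ad-GFP cells as the control instead, 0 of the 16 calls remained. The members' median log2 change was -0.03, as was that of all genes. An unadjusted p under 0.05 was found for 27 of the 50 members and for 8251 of the 13719 genes tested.

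Among ORC genes, Orc2, Orc4, Orc5 and Orc6 rose. Orc4, an ATPase-fold subunit of the DNA-binding core, measured 48.0, 43.0 and 43.2 CPM in the Ad-GFP libraries and 77.8, 86.6 and 78.5 CPM after Ad-Cre, a log2 change of 0.86 ± 0.13 (SE, adjusted p = 2.08e-05). Orc2, which contacts Orc3 in the core, measured 91.3, 77.7 and 78.9 CPM against 128, 149.7 and 130.0 CPM (log2 change 0.72 ± 0.09, adjusted p = 3.86e-06). Orc5 went from 27.9, 26.8 and 27.8 CPM to 38.8, 49.8 and 44.3 CPM (0.69 ± 0.11, adjusted p = 3.86e-05). In each of these the lowest Ad-Cre library was above the highest Ad-GFP library. Orc6, the smallest subunit, was likewise higher in all 3 libraries, at 138, 157 and 149 CPM against 104, 102 and 109 CPM (log2 change 0.49 ± 0.10, adjusted p = 0.000594). Orc1, the largest subunit, had a log2 change of -0.16 and Orc3 one of 0.29, and neither was called.

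Licensing regulators did not pass the test. Cdc6, the ATPase that loads MCM2-7 with ORC, was at 71.1, 66.9 and 65.0 CPM with Ad-GFP and at 67.4, 85.5 and 76.5 CPM with Ad-Cre, and both groups overlapped (adjusted p = 0.149). Gmnn, the CDT1 inhibitor geminin, had a log2 change of 0.40 with an adjusted p of 0.0114. Cdt1 itself varied widely between the Ad-Cre libraries, at 83.5, 46.8 and 63.9 CPM, against 91.9, 90.2 and 96.5 CPM with Ad-GFP. Its log2 change of -0.52 had an SE of 0.28 and did not pass.

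All 6 MCM2-7 subunits had negative log2 changes, from -0.46 to -0.02, and 4 of them passed the test. Mcm2 was at 377, 376 and 381 CPM with Ad-GFP and at 303, 218 and 301 CPM with Ad-Cre (log2 change -0.46 ± 0.14, adjusted p = 0.00749). Mcm5 was at 263, 255 and 270.5 CPM and then at 213, 186 and 216 CPM (-0.36 ± 0.08, adjusted p = 0.00118). Mcm6 was at 411, 432 and 429 CPM and then at 319, 378 and 336 CPM (-0.30 ± 0.07, adjusted p = 0.00211). The groups did not overlap in any of the 3. Mcm7 fell by 0.27 on the log2 scale (adjusted p = 0.000582), while Mcm3 and Mcm4, at 318 to 349 and 271 to 345 CPM after Ad-Cre, were not called. The Mcm2 call was lost when any of Rtel1f/f Ad-GFP libraries 1, 2 and 3 or Ad-Cre library 2 was left out (log2 change -0.46 to -0.34, adjusted p 0.0117 to 0.028), and that of Mcm6 without Ad-GFP library 2 or 3 or Ad-Cre library 1 or 3 (-0.28 to -0.25, adjusted p 0.0151 to 0.0366). When only the 2 groups compared were fitted, 10 members were called higher and 3 lower, and Mcm5 was the 1 MCM2-7 subunit called (-0.36, adjusted p = 0.00913). Mcm2, Mcm6 and Mcm7 were then at -0.47, -0.30 and -0.27 (adjusted p 0.0182, 0.0214 and 0.0268), Pole, Pola2 and Rrm1 also lost their calls, and Gmnn, Prim1 and Rpa3 gained one. The share of all genes called by that fit is not given here, so its counts cannot be read as particular to the members. Mcm8 and Mcm10, which helps CDC45 and GINS to activate the helicase, were not called.

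Of the DDK subunits, which phosphorylate loaded MCM2-7, the activator Dbf4 rose from 136, 120.3 and 120.5 CPM to 170.1, 209 and 186 CPM (log2 change 0.58 ± 0.09, adjusted p = 3.9e-05). The kinase Cdc7 had a log2 change of 0.26 and an adjusted p of 0.0566. None of CDC45 and the 4 GINS subunits, the partners of the active helicase, was called, and Gins4 had the lowest adjusted p at 0.0193.

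Among the polymerases, subunits moved in different directions. Pole, the catalytic subunit of the leading strand polymerase, fell from 193, 177 and 170.0 CPM to 151, 147 and 132 CPM (-0.33 ± 0.07, adjusted p = 0.00078). Pole3, its histone-fold subunit, rose by 0.39 ± 0.07 on the log2 scale, from 24.0 to 25.9 CPM up to 31.0 to 35.2 CPM (adjusted p = 0.000213). Pola2, the regulatory subunit of polymerase alpha, had a log2 change of -0.21 (adjusted p = 0.00668), and the primase subunit Prim1, at 0.40, missed the threshold with an adjusted p of 0.0127. Pold1, the catalytic subunit of polymerase delta, had the most negative log2 change of all members at -0.86, yet was not called. Without Ad-Cre library 3 the change of Pole was -0.26 (adjusted p = 0.0105), and without Ad-GFP library 2 or 3 or Ad-Cre library 1 or 2 that of Pola2 was -0.23 to -0.19 (adjusted p 0.011 to 0.0193). The 3 Ad-Cre libraries of Pold1 were far apart, at 54.4, 18.5 and 47.0 CPM, all below the 70.1 to 76.1 CPM of Ad-GFP, and the SE was 0.47 (adjusted p = 0.134).

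At the fork, none of the clamp, loader and RPA genes was called. Pcna measured 345, 369.5 and 373 CPM with Ad-GFP and 374, 414 and 408 CPM with Ad-Cre, a log2 change of 0.14 that did not pass (adjusted p = 0.219). Lig1, the ligase that seals Okazaki fragments, had the lowest adjusted p of the members. It went from 200.1, 206 and 211 CPM to 127, 129 and 140.0 CPM (log2 change -0.64 ± 0.05, adjusted p = 9.3e-09), and the 3 libraries of each group lay close together. Fen1, the flap nuclease that acts before it, had a log2 change of -0.08 and was not called. Timeless, a scaffold of the fork protection complex, fell from 140.3, 151 and 149 CPM to 108, 84.4 and 109 CPM (-0.54 ± 0.12, adjusted p = 0.000614), while its partner Tipin had a log2 change of 0.37 and was not called (adjusted p = 0.0184). Both ribonucleotide reductase subunits, which supply deoxynucleotides, rose. Rrm2, the subunit that limits the enzyme in cycling cells, had the largest rise of any member, from 87.4, 65.9 and 70.4 CPM to 148, 191 and 172 CPM (log2 change 1.19 ± 0.13, adjusted p = 6.31e-07). Rrm1 rose by 0.27 ± 0.06 on the log2 scale (adjusted p = 0.00128), a call that was lost without Ad-GFP or Ad-Cre library 2 or 3 (0.20 to 0.28, adjusted p 0.0108 to 0.0306).

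**Figure D2:**
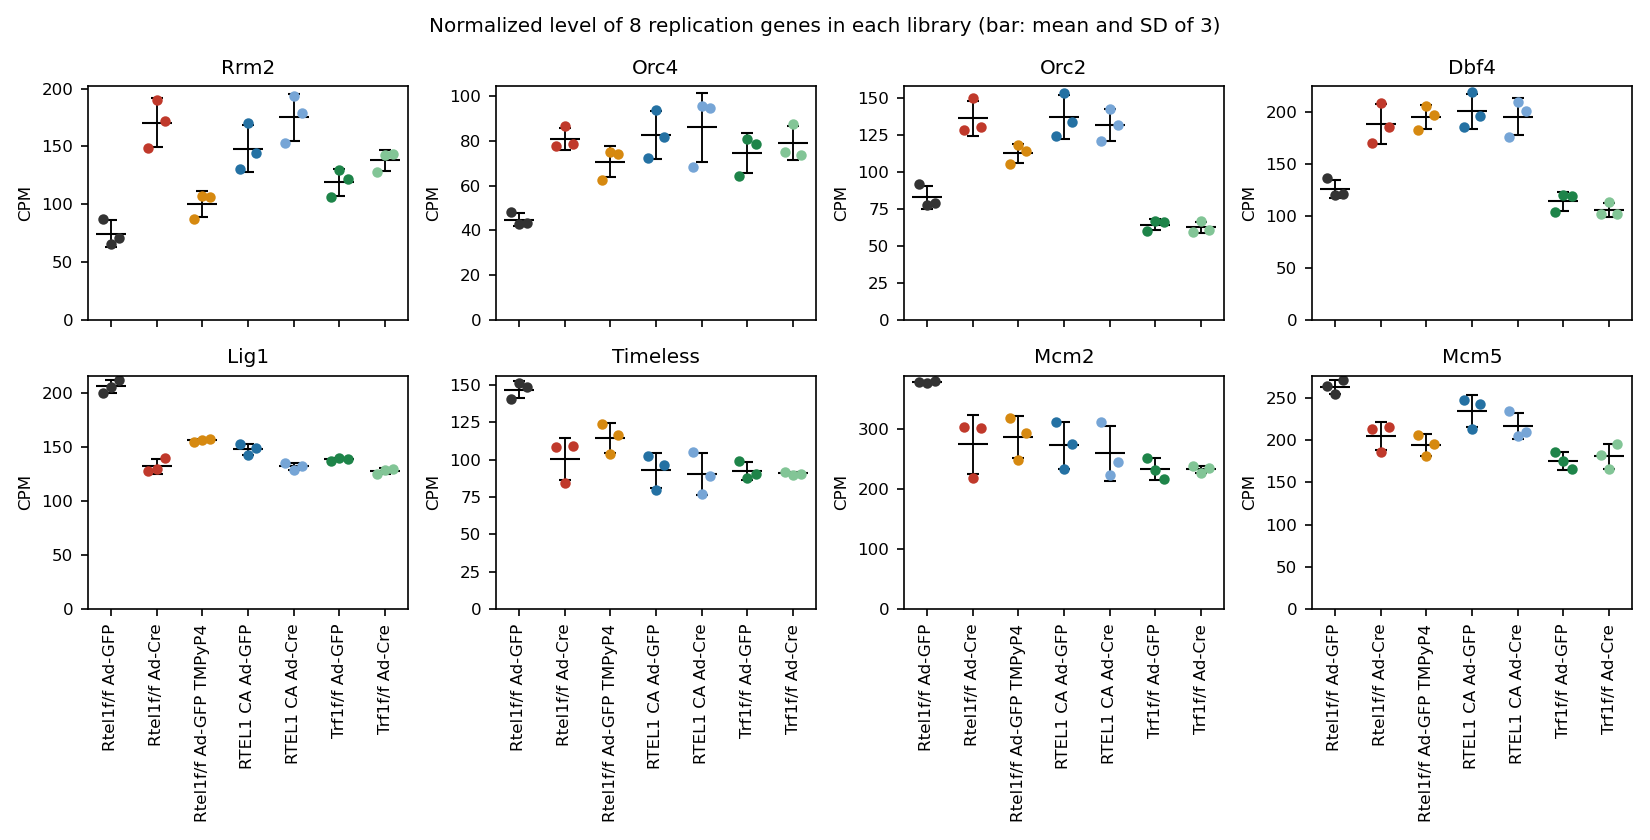
CPM of 8 replication genes in each of the 21 libraries, with the group mean and SD (n = 3) behind the points. The Rtel1f/f Ad-GFP libraries are the lowest of the Rtel1f/f line for Orc4, Orc2 and Dbf4 and the highest for Lig1, Timeless, Mcm2 and Mcm5.

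With TMPyP4, which binds and stabilizes G4s, ORC subunits and both DDK subunits rose and the Okazaki fragment enzymes fell. In all 7 members were higher and 5 lower than in Rtel1f/f Ad-GFP MEFs, 24.0% of the members against 30.0% of all genes tested (16.6% higher and 13.4% lower). The members' median log2 change was -0.04 and that of all genes -0.01. The same Ad-GFP libraries served as control for Rtel1 deletion and for TMPyP4, so the 2 sets of values share their control and are only set side by side. Against these libraries, untreated RTEL1 CA Ad-GFP cells also had all 7 of the higher and 2 of the 5 lower members called in the same direction.

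Orc4 was at 62.6, 75.2 and 74.3 CPM with TMPyP4, above all 3 Ad-GFP libraries (log2 change 0.66 ± 0.13, adjusted p = 0.00049). Orc5 was at 35.8, 40.9 and 39.8 CPM (0.50 ± 0.11, adjusted p = 0.00135) and Orc2 at 105, 118 and 114 CPM (0.44 ± 0.09, adjusted p = 0.000902), with no overlap with Ad-GFP. Orc3, which was not called after Rtel1 deletion, rose by 0.34 (adjusted p = 0.00621), and Orc6, at 108, 126 and 122 CPM, was not called here. Dbf4 reached 183, 206 and 197 CPM (log2 change 0.64 ± 0.09, adjusted p = 3.35e-05). Its kinase partner Cdc7 rose from 58.1, 55.9 and 52.9 CPM to 67.5, 84.0 and 77.5 CPM (0.46 ± 0.11, adjusted p = 0.00326). Pole3 stood at 30.4, 32.7 and 32.5 CPM (0.35 ± 0.07, adjusted p = 0.000928), again above every Ad-GFP library.

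Mcm5 had the largest fall among the called members, to 206, 181 and 195 CPM (-0.44 ± 0.08, adjusted p = 0.000358), and Lig1 the lowest adjusted p, at 155, 156 and 158 CPM (-0.40 ± 0.05, adjusted p = 6.35e-06). Fen1 went from 129.8, 128 and 136 CPM to 115, 97.6 and 110.3 CPM (-0.29 ± 0.08, adjusted p = 0.00875). The 2 Okazaki fragment enzymes thus both fell with TMPyP4. Rfc2, a clamp loader subunit, went from 99.1, 101 and 107 CPM to 84.7, 83.8 and 87.5 CPM (-0.26 ± 0.07, adjusted p = 0.00916), and Mcm3 from 337, 336 and 342 CPM to 287, 298 and 295 CPM (-0.21 ± 0.05, adjusted p = 0.00473). All 6 MCM2-7 subunits had negative log2 changes with TMPyP4 too, and only Mcm3 and Mcm5 were called. Mcm2, at 318, 248 and 293 CPM, was below Ad-GFP in every library but was not called. Rrm2 was at 87.3, 107 and 106 CPM, and its log2 change of 0.43 missed the threshold (adjusted p = 0.0135). Pcna, at 334, 374 and 373 CPM, and Cdc6, at 60.5, 68.2 and 63.6 CPM, overlapped with Ad-GFP. Single libraries bore on several of these calls. The count was 5 without Ad-GFP library 2, 4 without Ad-GFP library 3 and 7 without TMPyP4 library 2 or 3. The matching shares of all genes called are not given here. Without Ad-GFP library 2 or 3 the calls of Orc2 (0.39), Orc5 (0.47 and 0.49), Orc3 (0.30), Cdc7 (0.45 and 0.40) and Pole3 (0.34 and 0.31) were lost with the same direction. The calls of Cdc7 and Orc3 were also lost without TMPyP4 library 2 or 3. Those of Mcm3 (-0.23 to -0.19) and Rfc2 (-0.28 to -0.25) were lost whichever single library of either group was left out, and that of Fen1 (-0.31 to -0.22) without Ad-GFP library 1 or 3 or TMPyP4 library 2 or 3.

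Set directly against each other, Rtel1f/f Ad-Cre and TMPyP4-treated cells differed in 3 members, 6% against 15.2% of all genes tested (6.13% higher and 9.09% lower in Ad-Cre). Rrm2 was 0.77 ± 0.13 higher on the log2 scale in Ad-Cre (adjusted p = 0.000274), with the lowest Ad-Cre library at 148 CPM and the highest TMPyP4 library at 107 CPM. Lig1 was lower in Ad-Cre (log2 difference -0.24 ± 0.05, adjusted p = 0.00144), as was Pole, at 176, 183 and 167 CPM with TMPyP4 (-0.29 ± 0.07, adjusted p = 0.0063). The Pole call was lost without Ad-Cre library 2 or 3 or TMPyP4 library 1 or 2 (-0.30 to -0.19), and that of Lig1 without Ad-Cre library 1 or 2 (-0.21). Same-numbered libraries of these 2 groups deviated together, and 4 members were called when the fit held a block for the replicate number, Orc6 (log2 difference 0.31, adjusted p without the block 0.0339) being the added member. With DESeq2 size factors in place of TMM, 1 member was higher and 1 lower. For these fits the share of all genes called is not given here, so their counts cannot be read as particular to the members.

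**Figure D3:**
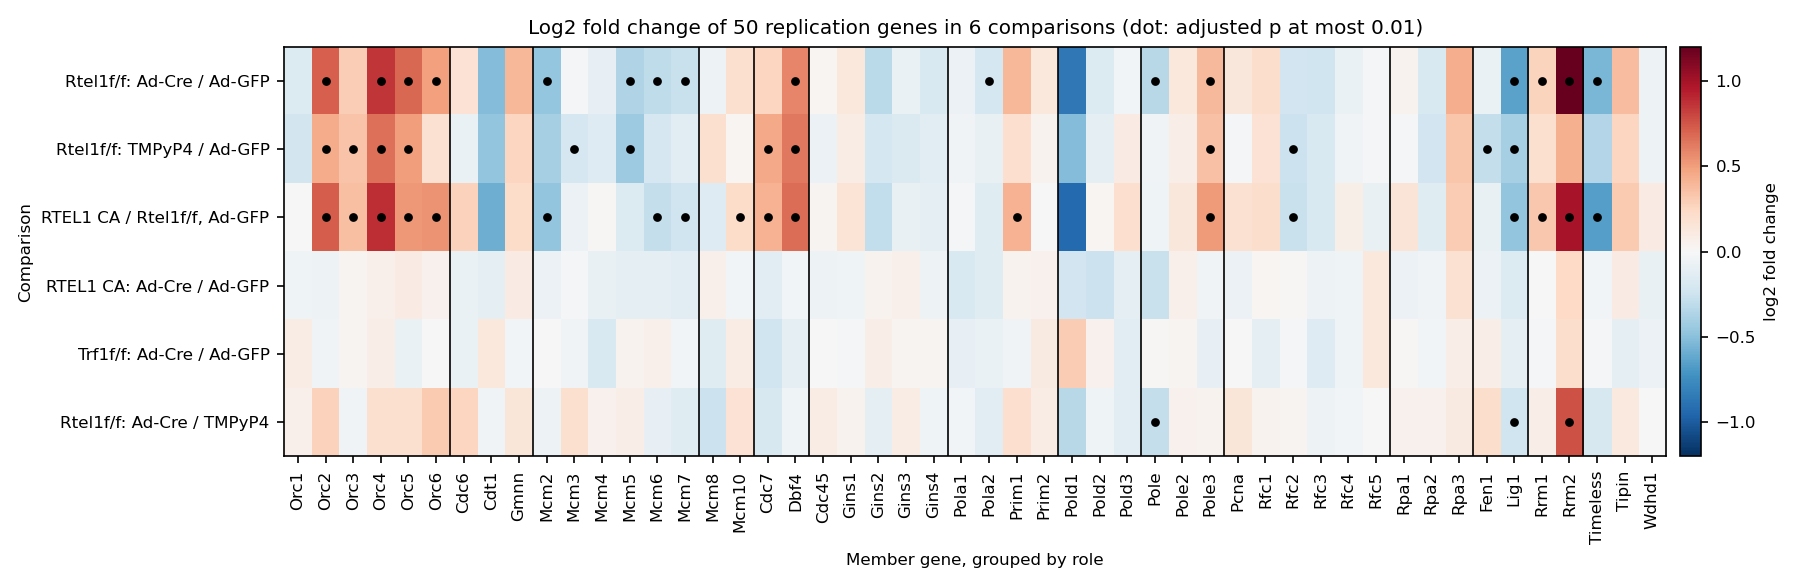
Log2 fold change (colour) of the 50 members, in columns grouped by role, in 6 comparisons (rows). Dots mark an adjusted p of at most 0.01. Dots stand in the rows against Rtel1f/f Ad-GFP (16, 12 and 18) and in the last row (3), and there are none in the Ad-Cre rows of RTEL1 CA and Trf1f/f MEFs.

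The RTEL1 CA Ad-GFP cells, in which the floxed gene had not been removed, differed from Rtel1f/f Ad-GFP cells in ORC, MCM2-7 and ribonucleotide reductase subunits. Of the 50, 12 were higher and 6 lower, 36% against 44.7% of all genes tested (22.6% higher and 22.1% lower). Rrm2 was at 130.2, 170.0 and 144 CPM in RTEL1 CA Ad-GFP libraries (log2 difference 0.99, adjusted p = 4.86e-06) and Orc4 at 72.3, 93.7 and 81.8 CPM (0.88, adjusted p = 1.43e-05). Orc2 was at 124, 153 and 134 CPM (0.73, adjusted p = 3.17e-06) and Dbf4 at 186, 219 and 196 CPM (0.67, adjusted p = 8.06e-06). Orc6 stood at 136, 174 and 148 CPM and Orc5 at 34.6, 44.5 and 39.4 CPM. All 6 were above every Rtel1f/f Ad-GFP library. Pole3, Cdc7, Prim1, Orc3, Rrm1 and Mcm10 were also higher. On the lower side, Timeless was at 102, 79.9 and 96.5 CPM (log2 difference -0.66, adjusted p = 9.84e-05) and Lig1 at 152, 142 and 149 CPM (-0.48, adjusted p = 2.79e-07). Mcm2 was at 312, 233 and 274 CPM, Mcm6 at 328, 366 and 346 CPM, Mcm7 at 374, 361 and 398 CPM and Rfc2 at 88.4, 76.1 and 90.1 CPM. Each of these libraries lay below every Rtel1f/f Ad-GFP library. Without Rtel1f/f Ad-GFP library 2 or 3 the count of members called was 10, and without RTEL1 CA library 2 it was 11, with Mcm2, Mcm7, Mcm10, Cdc7, Orc3, Prim1 and Rfc2 lost in each case. The matching shares of all genes called are not given here. The Rtel1f/f Ad-GFP group is the control in this comparison as in the 2 above. Its libraries also stood apart from the rest of their line, as given next. The mutant protein, the separate derivation and a property of these control libraries cannot be told apart.

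The Rtel1f/f Ad-GFP libraries stood apart from the other 12 libraries of the Rtel1f/f line. For 10 members (Mcm2, Mcm5, Mcm6, Mcm7, Cdt1, Pola2, Pold1, Rfc2, Lig1 and Timeless) they were above all 12, and for 9 (Dbf4, Orc2, Orc3, Orc4, Orc5, Pole3, Rfc1, Rrm1 and Tipin) below all 12. That is 38.0% of the members, and it was 36.4% of all genes tested. With RTEL1 CA Ad-GFP as the control in place of Rtel1f/f Ad-GFP, 0 members were called for Rtel1 deletion, against 7.76% of all genes, and 2 for TMPyP4, against 17.0% of all genes. Those 2 were Mcm8 (log2 difference 0.34) and Rrm2, which was then lower with TMPyP4 (-0.56). Pole kept its direction and most of its size, at -0.28 (adjusted p = 0.0139) against the -0.33 above, and all 3 Ad-Cre libraries lay below all 3 RTEL1 CA Ad-GFP libraries. Lig1 was at -0.16 (adjusted p = 0.0365) and Mcm5 at -0.19 (adjusted p = 0.144), whereas Orc2 (-0.01), Orc4 (-0.03) and Mcm2 (0.01) were near 0. Same-numbered libraries deviated together in these groups too, and with a block for the number, a fit added after seeing the data, Pole was the 1 member called for Rtel1 deletion (-0.28, adjusted p = 0.00636), against 9.20% of all genes. For TMPyP4 that fit called 7 members, against 21.6% of all genes. Mcm8 (0.34) and Timeless (0.31) were then higher, and Mcm5 (-0.27), Orc2 (-0.28), Orc6 (-0.35), Cdc6 (-0.36) and Rrm2 (-0.56) lower. Of the 12 members called with TMPyP4 against Rtel1f/f Ad-GFP, Mcm5 and Orc2 were among these 7, Orc2 with the opposite sign.

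Where Cre was tested within RTEL1 CA cells, no member was called by edgeR, against 1.09% of all genes tested. Its unadjusted p was under 0.05 for 6 of the 50 members and for 1950 of the 13719 genes tested. DESeq2 called Pole and Lig1. Pole went from 182, 174 and 166 CPM to 156, 140.4 and 136 CPM, with no overlap (log2 change -0.27, adjusted p = 0.0507). It passed in the fit with a block for the replicate number, by which these libraries were taken as paired. Lig1 went from 152, 142 and 149 CPM to 135, 129 and 133 CPM, also with no overlap (-0.16, adjusted p = 0.0848). Rrm2 was at 153, 193 and 179 CPM, Orc4 at 68.2, 95.4 and 94.7 CPM and Orc2 at 121, 143 and 131 CPM after Ad-Cre, each overlapping with RTEL1 CA Ad-GFP. Mcm2 was at 311, 224 and 244 CPM. Log2 changes of the 50 members lay between -0.27 (Pole) and 0.24 (Rrm2, adjusted p = 0.442), with a median of -0.05, and that of all genes was 0.00.

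After Terf1 deletion, no member was called by edgeR or by DESeq2, against 3.42% of all genes tested by edgeR. The unadjusted p of edgeR was under 0.05 for 3 of the 50 members and for 2369 of the 13719 genes tested. Log2 changes of the 50 members lay between -0.24 and 0.30, with a median of -0.02. Rrm2 was at 106, 129 and 122 CPM with Ad-GFP and 128, 142 and 144 CPM with Ad-Cre, and Lig1 at 137, 139 and 139 CPM and then at 125, 129 and 129.6 CPM. Pcna, at 351, 423 and 386 CPM and then at 389, 427 and 349.6 CPM, overlapped, as did Orc4, Orc2, Dbf4 and Mcm2.

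The effect of Cre in Rtel1f/f MEFs was then tested against the effect of Cre in each of the other 2 backgrounds. It differed from that in RTEL1 CA cells for 7 members, 6 of them higher (Rrm2, Orc4, Orc2, Dbf4, Orc5 and Pole3) and 1 lower (Lig1). That is 14% of the members against 25.1% of all genes tested, of which 12.8% were higher and 12.3% lower. The difference was 0.95 on the log2 scale for Rrm2, 0.80 for Orc4, 0.78 for Orc2 and -0.48 for Lig1. Against the effect in Trf1f/f MEFs 9 members differed, the same 7 and, on the lower side, Mcm5 (-0.40) and Mcm6 (-0.36). That was 18.0% of the members against 30.2% of all genes tested, 15.8% higher and 14.5% lower. Both tests include the Rtel1f/f Ad-GFP libraries. For the leave-outs that follow, the share of all genes called is not given, so their counts cannot be read as particular to the members. Without Ad-GFP library 2 or 3 the first count was 4, with Orc4 (0.79 and 0.78), Orc5 (0.59 and 0.61) and Pole3 (0.45 and 0.42) lost, and without Ad-GFP library 3 the second was 6, as it was without Trf1f/f Ad-GFP library 2, with Mcm5 (-0.38 and -0.39), Mcm6 (-0.35 and -0.34) and Orc4 (0.76 and 0.73) lost. Leaving out 1 library at a time bore on more of these calls. Orc5 then kept its call against RTEL1 CA only without Rtel1f/f Ad-Cre library 1, RTEL1 CA Ad-GFP library 1 or RTEL1 CA Ad-Cre library 2. Against Trf1f/f, Mcm6 kept its call only without Rtel1f/f Ad-Cre library 2 or Trf1f/f Ad-GFP library 3. Mcm5 kept its call only without Rtel1f/f Ad-GFP library 2, Rtel1f/f Ad-Cre library 3, Trf1f/f Ad-GFP library 1 or Trf1f/f Ad-Cre library 2. Without the 7 libraries numbered 2, only Orc2 was called against RTEL1 CA, and Orc2 and Lig1 against Trf1f/f.

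The members' changes moved with the GC content of their transcripts. The longest coding transcripts of the 50 members ranged from 36.8% to 60.7% GC (median 48.0%). The 8 members that rose after Rtel1 deletion had between 36.8% and 48.1% GC, and the 8 that fell between 47.3% and 55.5%. Across the 50 members, which share the same libraries, the Spearman correlation of log2 change with GC was -0.72 for Rtel1 deletion and -0.76 for TMPyP4. It was -0.72 for RTEL1 CA against Rtel1f/f, -0.47 for Cre in RTEL1 CA cells and 0.25 for Cre in Trf1f/f cells. Single libraries also differed with GC. Over 11782 genes, the correlation of a library's deviation with GC was 0.31 to 0.41 in the Rtel1f/f Ad-GFP libraries and -0.31 to -0.51 in the libraries numbered 2 of Rtel1f/f Ad-Cre, TMPyP4, RTEL1 CA Ad-GFP and RTEL1 CA Ad-Cre. In all 4 of these groups library 2 was the lowest for 10 members (Mcm2, Mcm5, Cdt1, Gins2, Pola2, Pold1, Pold2, Rfc2, Fen1 and Timeless, 50.5% to 60.7% GC) and the highest for 18 (36.8% to 49.4% GC), among them Orc2, Orc4, Orc5, Orc6, Dbf4, Rrm1 and Rrm2. These counts, and the correlations of log2 change with GC, are not given here for all genes. They cannot be read as particular to the members.

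When each library was corrected for GC, an alternative chosen after seeing the data, 21 members were called after Rtel1 deletion, 14 higher and 7 lower, where 50% of all genes were called. Of the 16 members called without it, 14 were kept, and Mcm7 and Pola2 were lost. Orc4 (log2 change 0.70), Orc2 (0.65), Orc5 (0.57), Dbf4 (0.51) and Rrm2 (1.13) stayed higher, and Lig1 (-0.44), Timeless (-0.32) and Mcm2 (-0.23) lower. Pold1, at -0.86 before, was at -0.28, and Cdt1, at -0.52 before, at -0.05, and neither was called. Pold2, the small polymerase delta subunit, turned from -0.16 to 0.30 and was then called higher. With TMPyP4, 17 members were called after the correction, 9 higher and 8 lower, where 37.1% of all genes were called, and 10 of the 12 were kept. The correlation of the members' change with GC was -0.43 for Rtel1 deletion and -0.46 for TMPyP4 after the correction. Without the 7 libraries numbered 2, 10 members (20%) were called after Rtel1 deletion, where 28.0% of all genes were called, with Orc2, Orc4, Orc5, Dbf4, Pole3, Rrm2, Mcm5, Mcm6, Lig1 and Timeless kept, and 3 with TMPyP4 (Dbf4, Mcm5 and Lig1), where 12.9% of all genes were called. The part of GC content and of these libraries in the members' changes was not tested beyond these values.

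**Figure D4:**
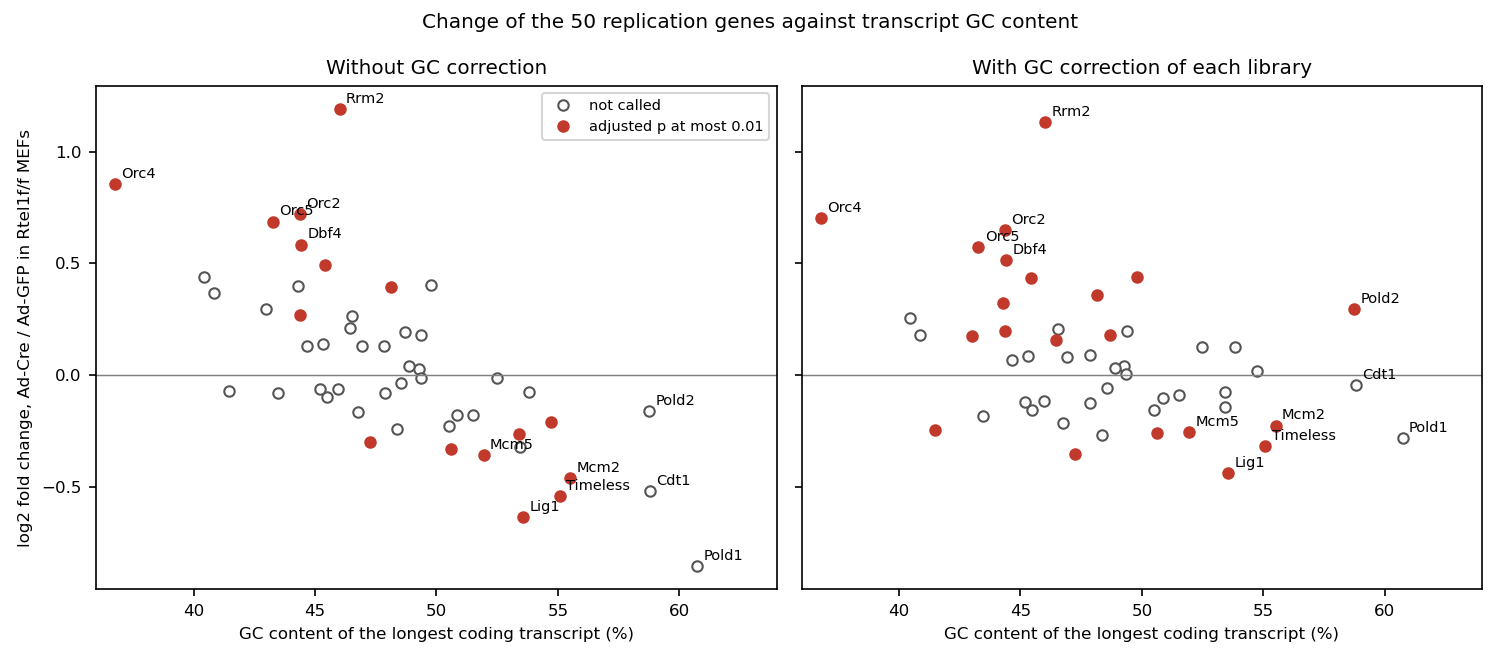
Log2 fold change of the 50 members after Rtel1 deletion against the GC content of the longest coding transcript, without (left) and with (right) GC correction of each library. Filled points had an adjusted p of at most 0.01 (16 on the left and 21 on the right). Pold1 moves from -0.86 to -0.28 and Rrm2 stays the highest point.

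Of the 50 members 27 (54.0%) were called in none of the 6 comparisons between groups, against 41.8% of all genes tested. Among them were Pcna, Mcm4, the licensing genes Cdc6, Cdt1 and Gmnn, CDC45 and all GINS subunits, Orc1, the 3 polymerase delta subunits, the 3 RPA subunits and 4 of the clamp loader genes.

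Genes that work beside the members were counted from other lists. Of 25 further replication genes (helicase loading and firing factors, chromatin assembly factors and others), 6 were higher and 1 lower after Rtel1 deletion, 28.0% against 43.0% of all genes, with a median log2 change of 0.12. Top1, the topoisomerase that relaxes DNA ahead of forks and polymerases, had a log2 change of 0.82 (adjusted p = 8.31e-06), the histone chaperone gene Asf1b one of 0.48, and Mtbp, a partner of the firing factor Treslin, one of 0.42. Asf1a was also higher at 0.42, and Chaf1b, a chromatin assembly subunit, lower at -0.62. With TMPyP4 5 were higher and 2 lower, 28.0% against 30.0% of all genes, led by Mtbp (0.73), Top1 (0.47), Asf1a (0.43) and Rif1 (0.32), a regulator of origin timing, and by Chaf1b (-0.47) and Mcm9 (-0.33).

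Of 15 genes of nucleotide supply, 9 were higher and none lower after Rtel1 deletion, 60.0% against 43.0% of all genes, with a median log2 change of 0.36. They were led by the nucleoside diphosphate kinase gene Nme1 (1.13), the p53-inducible reductase subunit Rrm2b (0.76), the purine synthesis gene Gart (0.58) and the pyrimidine synthesis gene Umps (0.58). With TMPyP4 4 were higher and none lower, 26.7% against 30.0% of all genes, namely Rrm2b (0.83), Nme1 (0.63), Ctps (0.50) and Umps (0.21).

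Of 22 genes that control entry into S phase, 9 were higher and 5 lower after Rtel1 deletion, 63.6% against 43.0% of all genes. The cyclin genes Ccne1 (1.41), Ccnd1 (1.35), Ccnd2 (1.11) and Ccne2 (0.71) rose, and Rbl2 (-0.40), E2f7 (-0.40), Rbl1 (-0.38) and E2f6 (-0.31), which encode repressors of E2F targets, fell. With TMPyP4 6 were higher, led by Ccnd2 (1.19), Ccnd1 (0.76), E2f5 (0.48) and Ccne1 (0.43), and 3 lower, E2f6 (-0.34), E2f7 (-0.22) and Rbl2 (-0.21), together 40.9% against 30.0% of all genes. Of 25 mitotic genes, 12 were higher and 1 lower after Rtel1 deletion (52.0% against 43.0% of all genes) and 7 and 1 with TMPyP4 (32.0% against 30.0%). Aurka (0.64), Ccnb1 (0.64), Hmmr (0.61) and Birc5 (0.56) rose after Rtel1 deletion, and Hmmr (0.47), Bub1 (0.33), Ccnb1 (0.31) and Birc5 (0.31) with TMPyP4. Mki67, the proliferation marker, fell in both, at -0.59 and -0.62. In RTEL1 CA Ad-GFP against Rtel1f/f Ad-GFP cells the counts were 6 higher and 2 lower for the further replication genes (32.0%), 7 and 0 for nucleotide supply (46.7%), 11 and 1 for S phase entry (54.5%) and 13 and 0 for mitosis (52.0%), against 44.7% of all genes.

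Between the 2 lines, levels of the members were lower in Trf1f/f MEFs. For 27 of the 50 members (54.0%) all 6 Trf1f/f libraries were below all 15 libraries of the Rtel1f/f line, against 15.1% of all genes tested. They included the origin genes Orc1, Orc2, Orc6, Cdc6, Cdc7 and Dbf4 and the helicase genes Cdc45, Mcm3 and Mcm7. Gmnn was at 34.7 to 44.6 CPM in Trf1f/f libraries and at 95.2 to 137 CPM in the Rtel1f/f line, and Mcm7 at 238 to 257 CPM and 340.3 to 457 CPM. Mcm6 alone was above, at 443 to 511 CPM against 308 to 432 CPM, whereas 2888 of the 13719 genes tested were above. The lines differ in genotype and origin, which cannot be told apart.

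**Figure D5:**
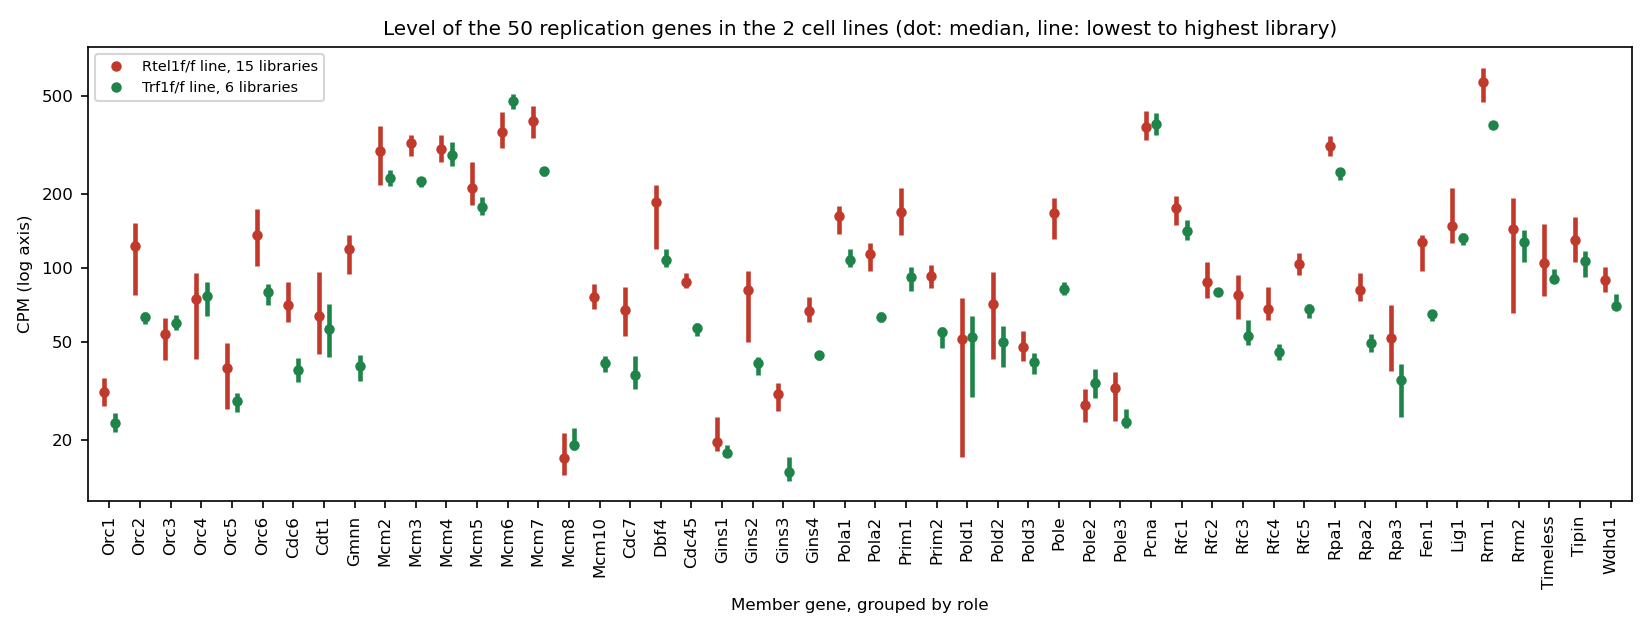
CPM (log axis) of the 50 members in the Rtel1f/f line (15 libraries, red) and the Trf1f/f line (6 libraries, green). Dots mark the median and lines run from the lowest to the highest library. For 27 members the green range lies below the red one and for Mcm6 above it.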

How the data were processed

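RNA was sequenced in 21 MEF libraries, in 7 groups of 3 taken from the labels. Per the labels, mRNA libraries were strand-specific with single-end reads. The authors used cutadapt 1.9.1 for trimming and STAR 2.5.2a for alignment, and estimated expected counts per RefSeq gene of mm10 with RSEM 1.3.0. They deposited these expected counts without normalization, all of them whole numbers, beside the TPM values that RSEM gives, and used DESeq2 1.28.0 for their own tests, which is an alternative here. The table was otherwise used as deposited, and 0 of its columns belonged to no sample.

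Counts were analysed with edgeR 4.0.16 in R 4.3.3. After TMM normalization and filterByExpr by group, 13719 of 24454 genes were fitted with 1 coefficient per group over all libraries (robust quasi-likelihood fit, 14 residual degrees of freedom), tested two-sided and adjusted by Benjamini-Hochberg over all genes tested. A gene counted as called when its adjusted p was at most 0.01. CPM is the count scaled to the TMM-normalized library size, errors of log2 changes are SEs and those of TPM are SDs over 3 libraries. TPM values served only to compare genes within a group. Interval and count precision cover counting error only. The script was tested on simulated data. No pair of libraries shared more than 3.67% identical nonzero counts.

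The 50 members, the other lists and the tests were chosen with earlier results of these data known. Named were every member, the targeted genes and, from each other list, up to 4 called genes in each direction with the largest change in the first 2 comparisons. Library values were given for up to 6 members each way per comparison that were called without overlap, and for Pcna, Mcm2, Cdc6 and Rrm2. Other members named with library values were singled out after their values were seen. Results were recomputed with DESeq2 1.42.0, with DESeq2 size factors in edgeR, without a filter, with a minimum of 10 counts per library, from the compared groups alone, with a block for the replicate number, with the threshold at 0.05 and with each library left out. A GC correction (loess, span 0.3) with or without the block, the RTEL1 CA Ad-GFP control, with or without a block shared by Rtel1f/f Ad-Cre, TMPyP4 and RTEL1 CA Ad-GFP, and the fit without the libraries numbered 2 were chosen after seeing the data. GC content came from the longest coding GENCODE vM21 transcript, for 98.5% of genes and all 50 members, and promoters from RefSeq GRCm38.p6.

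Over 11840 genes, same-numbered libraries deviated from their groups with correlations of 0.72, 0.76 and 0.41 between Rtel1f/f Ad-Cre and TMPyP4 and of 0.86, 0.84 and 0.42 between RTEL1 CA Ad-Cre and Ad-GFP, and those of RTEL1 CA Ad-GFP with correlations of 0.78, 0.81 and 0.20 to Rtel1f/f Ad-Cre and of 0.78, 0.69 and 0.30 to TMPyP4, where the numbers were taken to pair libraries (all above 0.1). They did not with Rtel1f/f Ad-GFP (-0.02 to 0.13) or within Trf1f/f (0.55, 0.36 and -0.10). Between lines, Trf1f/f Ad-GFP libraries met the same rule with RTEL1 CA Ad-GFP (0.83, 0.36 and 0.26), RTEL1 CA Ad-Cre (0.83, 0.39 and 0.35) and TMPyP4 (0.79, 0.37 and 0.13). With Rtel1f/f Ad-Cre they did not (0.74, 0.30 and -0.39). A shared number thus need not mean that libraries were paired in the experiment, and the source of the shared deviation was not tested.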

Additional observations from a re-analysis of the deposited data

Results flagged for a closer look

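The effect of Cre in Rtel1f/f MEFs differed, by the test of the difference itself, from its effect in RTEL1 CA MEFs for 7 members and from its effect in Trf1f/f MEFs for 9. Against RTEL1 CA, the log2 difference was 0.95 for Rrm2, 0.80 for Orc4, 0.78 for Orc2, 0.62 for Dbf4, 0.59 for Orc5, 0.43 for Pole3 and -0.48 for Lig1. Against Trf1f/f, it was 0.98 for Rrm2, 0.77 for Orc4, 0.76 for Orc2, 0.76 for Orc5, 0.70 for Dbf4, 0.49 for Pole3, -0.52 for Lig1, -0.40 for Mcm5 and -0.36 for Mcm6. In both tests the Rtel1f/f Ad-GFP libraries enter as the control of the first effect, and these libraries stood apart from the other 12 of their line for 19 members. Leaving out single libraries removed several of these calls, most often that of Orc5 against RTEL1 CA and those of Mcm6 and Mcm5 against Trf1f/f.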

How the results depend on the processing

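Counts of members called in the 8 comparisons, in the order Rtel1 deletion, TMPyP4, Rtel1 deletion against TMPyP4, RTEL1 CA against Rtel1f/f, Cre in RTEL1 CA, Cre in Trf1f/f and the Cre effect in Rtel1f/f minus that in RTEL1 CA and minus that in Trf1f/f, were 16, 12, 3, 18, 0, 0, 7 and 9. With DESeq2 they were 19, 14, 4, 19, 2, 0, 8 and 13, and fitting only the groups compared they were 13, 13, 1, 11, 0, 0, 5 and 9. With a block for the replicate number they were 28, 18, 4, 24, 1, 0, 10 and 21. Of these, only Rtel1 deletion against TMPyP4 and Cre in RTEL1 CA met the rule used for pairing by number. With the GC correction they were 21, 17, 8, 19, 0, 0, 10 and 13, with 6 of the 8 in the third higher, and with the GC correction and the block 26, 23, 13, 25, 2, 0, 14 and 17. Without the libraries numbered 2 they were 10, 3, 1, 8, 0, 0, 1 and 2, and at an adjusted p of at most 0.05 they were 25, 19, 7, 24, 0, 0, 10 and 17. Leaving out 1 library at a time gave 12 to 18, 4 to 11, 2 to 3, 10 to 17, 0, 0, 4 to 8 and 6 to 12. Other size factors and filters kept every count within 1.5 times. All of these are counts of members only, and the share of all genes called also moved with the setting. Without the libraries numbered 2 it was 28.0% for Rtel1 deletion and 12.9% for TMPyP4, against 43.0% and 30.0% with all libraries. For settings given here or above without that share, a change in count cannot be read as particular to the members. Against RTEL1 CA Ad-GFP libraries the counts for Rtel1 deletion and TMPyP4 were 0 and 2, and 1 and 7 with the block. The sign then turned (values without and with the block) after Rtel1 deletion for Mcm2 (0.0069 and 0.0017), Dbf4 (-0.090 and -0.091), Orc2 (-0.0089 and -0.0070), Orc4 (-0.028 and -0.022), Orc6 (-0.045 and -0.040), Pole3 (-0.12 and -0.12), Rrm1 (-0.059 and -0.059), Timeless (0.12 and 0.11), Top1 (-0.0099 and -0.016), Asf1b (-0.058 and -0.057), Asf1a (-0.10 and -0.10), Nme1 (-0.027 and -0.026), Gart (-0.10 and -0.10), Ccnd2 (-0.12 and -0.12) and Birc5 (-0.019 and -0.016), and with TMPyP4 for Dbf4 (-0.038 and -0.036), Orc2 (-0.29 and -0.28), Orc3 (-0.018 and -0.018), Orc4 (-0.22 and -0.22), Orc5 (-0.024 and -0.019), Pole3 (-0.16 and -0.16), Rfc2 (0.0079 and 0.013), Lig1 (0.078 and 0.078), Rrm2 (-0.56 and -0.56), Top1 (-0.35 and -0.35), Asf1a (-0.10 and -0.093), Rif1 (-0.037 and -0.034), Nme1 (-0.53 and -0.53), Ctps (-0.19 and -0.19), Umps (-0.30 and -0.30), Ccnd2 (-0.039 and -0.040), Ccnd1 (-0.14 and -0.13), E2f5 (-0.28 and -0.28), Ccne1 (-0.65 and -0.65), Rbl2 (0.17 and 0.17), Hmmr (-0.069 and -0.068), Bub1 (-0.14 and -0.14), Ccnb1 (-0.20 and -0.20) and Birc5 (-0.27 and -0.27). Of members not called with TMPyP4 before, Orc6 (-0.35) and Timeless (0.31) turned and were called with the block. With the GC correction, alone and with the block, Pola2 (0.015 and 0.014) and Pold2 (0.30 and 0.30) turned after Rtel1 deletion, Pold2 with TMPyP4 (0.22 and 0.22) and against Trf1f/f (0.36 and 0.36), Fen1 in RTEL1 CA against Rtel1f/f (0.15 and 0.15) and, with both only, against RTEL1 CA (0.20). The causes were not tested. Over 8025 combinations of a gene, a comparison and an alternative, 91 changed sign where 1 or both values were called, all under alternatives chosen after seeing the data, and 378 lost the call without a change of sign. At 3 libraries per group, members with a wide spread such as Pold1 (SE 0.47 after Rtel1 deletion) could not be resolved.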
